A study of Rattus norvegicus with 11 samples.

Results

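The genes described here are those of mitosis and DNA replication, measured in ventricular myocytes isolated from the hearts of adult rats. They were chosen by name from a list of 42 symbols, 28 of mitosis and 14 of DNA replication, and 39 of them had a row among the 17257 genes of the authors' deposited table. The 3 names with no row were Bub1b, Cenpe and Anln, all from the mitotic list, which left 25 mitotic and 14 replication genes. The list was drawn up with the difference between the sexes in this table already known, so fold changes and calls between the sexes describe the genes here and are no independent evidence of a direction. The rats were untreated wild-type Sprague Dawley animals of 3 to 4 months, and there were 6 male and 5 female samples, which the series' design text calls biological replicates without saying whether each was 1 animal or a pool. Myocytes were released from the heart on a Langendorff apparatus, which perfuses the organ through the aorta, and were held on dishes for 45 minutes before freezing. All samples were thus freshly isolated cells of bulk preparations, and the comparison is of males with females.

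A cell that divides first copies its DNA and then separates the copies. Replication begins when the MCM helicase, a ring of related subunits, opens the double helix, and the sliding clamp and enzymes that make deoxynucleotides serve the copying; several of these proteins also act in DNA repair or are present in cells that are not dividing. Mitotic genes encode cyclins, kinases, kinetochore proteins, spindle motors and the machinery that pinches the cell apart, and their transcripts are largely found in cells that are close to division. Adult cardiomyocytes have largely left the cell cycle, whereas fibroblasts, endothelial cells and leukocytes of the heart can divide.

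The promoters of these genes carry known cell cycle elements. The CHR (cell cycle genes homology region, TTTGAA) is bound by a complex that silences genes in resting cells and activates them before mitosis, often next to CCAAT boxes bound by NF-Y, and E2F motifs (searched as TTTCCCGC or TTTGGCGC) serve genes of the start of S phase. Promoter sequences came from RefSeq on the GRCr8 build, and the last 150 bases before the annotated start are shown for 4 mitotic genes with both a CHR and a CCAAT match and for 2 helicase genes with an E2F match. Each is written 5′ to 3′ on the gene's own strand, with matches on either strand in capitals: TTTGAA for the CHR, CCAAT for the box of NF-Y and the E2F letters, or the reverse complement of each. The sequences are from chr13:53625434-53625583 (plus strand) for Aspm, chr1:143659331-143659480 (plus) for Prc1, chr3:167841642-167841791 (plus) for Fam83d, chr10:84473094-84473243 (minus) for Top2a, chr19:13488663-13488812 (plus) for Mcm5 and chr13:42404353-42404502 (minus) for Mcm6.
Aspm: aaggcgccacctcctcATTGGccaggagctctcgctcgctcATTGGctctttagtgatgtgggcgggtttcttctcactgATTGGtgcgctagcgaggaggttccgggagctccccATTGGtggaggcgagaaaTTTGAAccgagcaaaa
Prc1: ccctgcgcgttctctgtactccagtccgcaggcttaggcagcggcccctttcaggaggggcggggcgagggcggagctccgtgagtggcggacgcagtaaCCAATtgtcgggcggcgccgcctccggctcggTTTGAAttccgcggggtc
Fam83d: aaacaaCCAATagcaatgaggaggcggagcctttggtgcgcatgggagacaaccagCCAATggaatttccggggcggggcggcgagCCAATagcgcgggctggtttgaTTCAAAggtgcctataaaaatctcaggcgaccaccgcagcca
Top2a: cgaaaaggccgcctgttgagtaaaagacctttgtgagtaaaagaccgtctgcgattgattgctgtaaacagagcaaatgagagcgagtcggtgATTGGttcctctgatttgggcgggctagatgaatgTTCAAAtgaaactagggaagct
Mcm5: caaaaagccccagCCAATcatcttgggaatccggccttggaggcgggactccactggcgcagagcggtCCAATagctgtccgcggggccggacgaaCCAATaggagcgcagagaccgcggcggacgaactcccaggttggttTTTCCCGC
Mcm6: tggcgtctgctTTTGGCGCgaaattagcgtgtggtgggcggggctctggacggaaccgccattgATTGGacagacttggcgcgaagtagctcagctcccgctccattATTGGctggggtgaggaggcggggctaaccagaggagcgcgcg
In the 4 mitotic sequences the CHR match lies nearest to the start, downstream of every CCAAT match. In Mcm5 the E2F match ends at the last base before the start, and in Mcm6 it lies upstream of both CCAAT matches.

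Most of the mitotic genes, and few of the replication genes, passed the authors' test as lower in females than in males, although 11 of the 14 replication genes also had a negative fold change. Of the 39 genes, 22 were lower in females in the authors' deposited table, at an adjusted p under 0.05, none was higher and 17 were not called. Over all genes with a mean above 0, the same table calls 7.76% lower and 6.71% higher in females; nothing is read from the members' count against these shares, because the list was chosen with the contrast known. The 22 were made up of 19 of the 25 mitotic genes and 3 of the 14 replication genes. The median log2 fold change, female over male, was -1.77 over the mitotic genes and -0.49 over the replication genes, against -0.0057 over all genes with a mean of at least 5 normalized counts. The value was negative for 35 of the 39 genes and positive for 4, namely Aurka, Mcm2, Mcm7 and Tk1. Because the samples are bulk RNA, fewer dividing cells and less of these RNAs per cell cannot be told apart. The plot of fold change by role shows how the genes fall within each step.

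**Figure D1:**
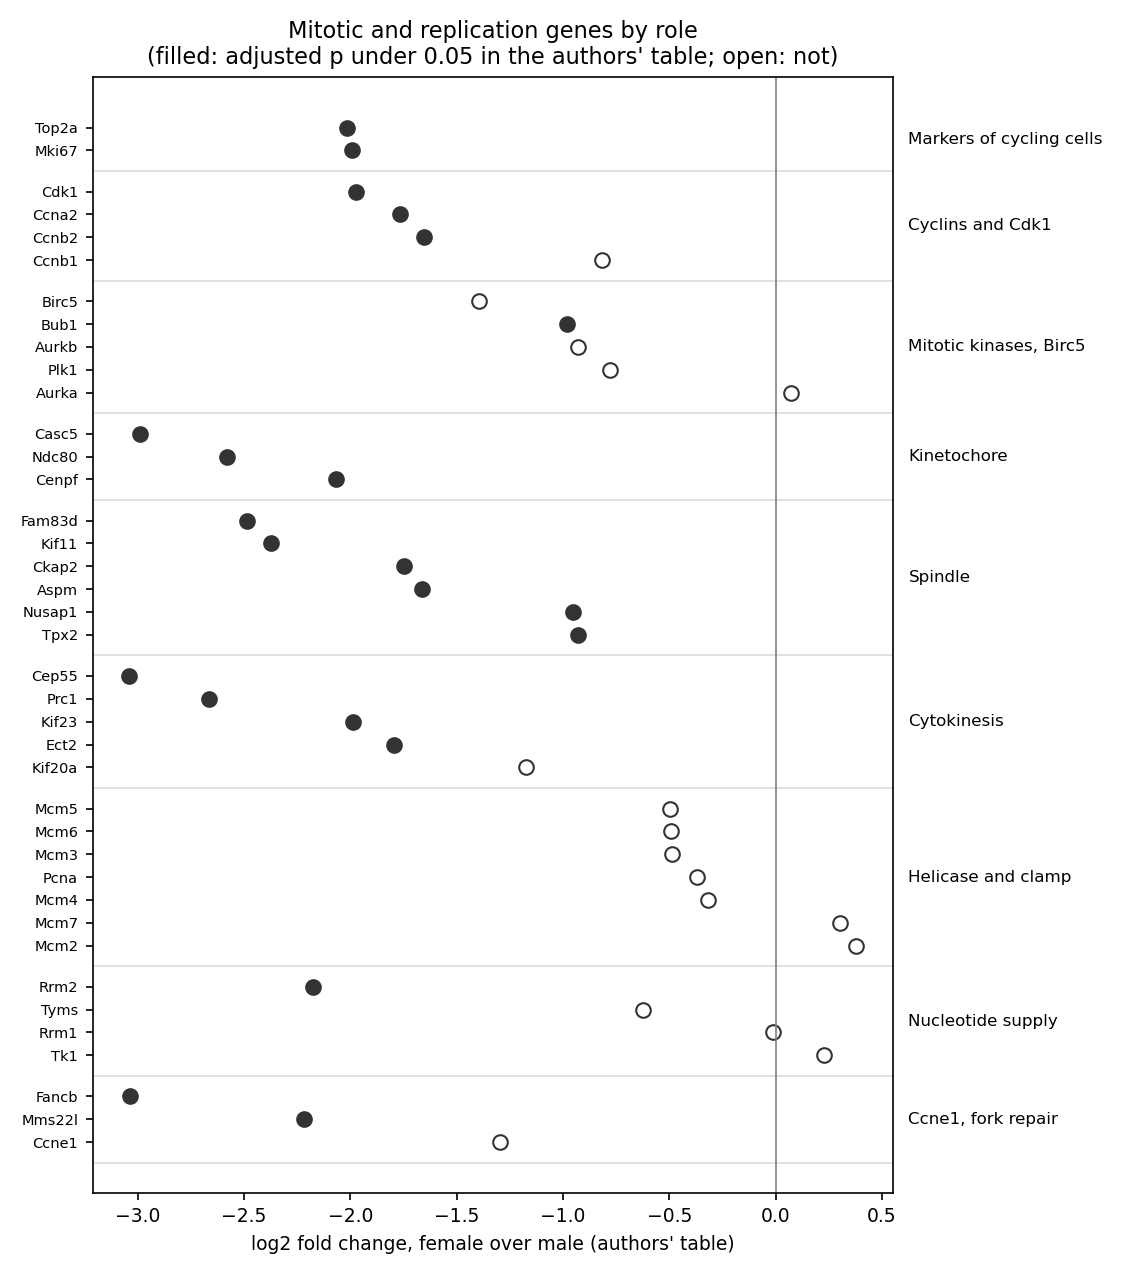
Log2 fold change, female over male, of the 39 genes as given in the authors' deposited table, ordered by role, with genes past the authors' adjusted p of 0.05 marked. The kinetochore, spindle and cytokinesis genes sit to the left of zero, and the helicase genes lie close to it, with Mcm2 and Mcm7 to the right.

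The deposited file holds 1 mean per sex, but its digits allowed the whole counts behind low means to be recovered, library by library (the procedure follows the results). Libraries are known in this way by sex and size factor only, so they are lettered by falling size factor, a to f in males and a to e in females, and the letters are not the replicate numbers of the labels. Values in every library were recovered for 24 of the 39 genes, 18 mitotic and 6 replication genes. For 8 more, Mki67, Top2a, Bub1, Cenpf, Tpx2, Nusap1, Prc1 and Mcm5, only the female libraries could be recovered, and for Mcm2, Mcm4, Mcm7, Pcna, Rrm1, Tyms and Tk1 only the authors' means are at hand. Which genes were recovered depended on their level, since a male mean above 100 was not attempted and that of Nusap1, just below it, had more than 1 solution. Values are normalized counts, not divided by transcript length, so levels are compared between libraries and not between genes.

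Mki67 and Top2a, widely used markers of dividing cells, were lower in females by the authors' test. Mki67, the Ki-67 protein that coats mitotic chromosomes, averaged 409 in males against 103 in females by the authors' deposited table, a log2 fold change of -1.99. Its 5 female libraries a to e held 94.3, 57.9, 97.6, 137 and 128 normalized counts, and the authors' male mean was 2.99 times the highest of them. Top2a, the topoisomerase that untangles replicated chromosomes, averaged 182 in males against 45.0 in females by the authors' deposited table. Its female libraries held 38.8, 21.7, 56.5, 75.1 and 32.9 normalized counts, all below that male mean. Neither gene's male libraries were recovered, so overlap between single libraries cannot be stated for them.

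Of the cyclins and their kinase, Ccna2, Ccnb2 and Cdk1 were lower in females by the authors' test and Ccnb1 was not called. Ccnb2, a B-type cyclin that drives entry into mitosis, had 24.4, 68.0 and 106 normalized counts as the lowest, median and highest of the 6 male libraries. The female libraries a to e held 14.1, 13.6, 28.7, 37.0 and 14.4, so 2 of them lay above the lowest male library. The means were 67.8 ± 29.0 in males (SD, n = 6) and 21.6 ± 10.7 in females (SD, n = 5), a male mean 3.15 times the female mean. Ccna2, the A-type cyclin of S phase and G2, ran from 11.1 through a median of 31.5 to 59.7 in males. In females it was 7.05, 8.15, 4.78, 28.8 and 1.03, with female library d alone inside the male range. The male mean was 3.40 times the female mean with all libraries, 6.45 times without female library d and 2.78 times without e. Cdk1, the kinase partner of these cyclins, ran from 16.0 through 30.8 to 101 in males, and was 7.05, 3.62, 9.57, 13.4 and 21.6 in females. Here male library a stood highest and female library e overlapped the lowest male; without library a the male mean was 2.89 times the female mean, against 3.93 with it. Ccnb1, the other B-type cyclin, was 18.9 ± 6.98 in males (SD, n = 6) and 10.7 ± 3.84 in females (SD, n = 5), and only 3 of the 5 female libraries were below the lowest male.

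The kinases of mitosis, counted with Birc5, had the fewest calls among the mitotic roles, 1 of 5 measured genes. That gene was Bub1, a kinase of the spindle checkpoint, which averaged 161 in males against 81.7 in females by the authors' deposited table. Its female libraries were close together at 73.1, 106, 81.3, 80.2 and 67.9 normalized counts. Aurka, the Aurora kinase of the spindle poles, had 35.2, 60.6 and 79.5 as the lowest, median and highest male value, and 64.3, 38.0, 86.1, 59.6 and 58.7 in females. The highest Aurka value of all 11 libraries was in female library c, and no female library lay below the lowest male. Aurkb, the Aurora kinase of the chromosomal passenger complex, averaged 37.9 ± 17.8 in males (SD, n = 6) and 19.9 ± 15.2 in females (SD, n = 5). Birc5, survivin of the same complex, averaged 25.8 ± 17.03 in males (SD, n = 6) and 9.79 ± 8.04 in females (SD, n = 5), and 2 male libraries, c and f, were low at 3.81 and 6.16. Plk1, a kinase that acts from mitotic entry to cytokinesis, ranged from 9.05 to 28.9 in males and from 0 to 26.8 in females. The sexes overlapped for all of Aurka, Aurkb, Birc5 and Plk1.

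All 3 measured kinetochore genes were lower in females by the authors' test. Casc5 (also known as Knl1), the scaffold that recruits checkpoint proteins to kinetochores, had 29.9, 79.3 and 115 normalized counts as the lowest, median and highest male value. Its female libraries a to e held 0.881, 8.15, 23.9, 5.14 and 12.3, all below the lowest male library. The means were 80.2 ± 29.7 in males (SD, n = 6) and 10.1 ± 8.80 in females (SD, n = 5), a ratio of 7.95. Leaving out 1 female library gave ratios from 6.47 (without a) to 12.1 (without c). Ndc80, the subunit that binds spindle microtubules, was even across the male libraries at 21.0 to 35.4, and was 6.17, 5.43, 11.5, 0 and 0 in females. Its male mean of 27.6 ± 5.26 (SD, n = 6) was 5.98 times the female mean of 4.62 ± 4.82 (SD, n = 5). The ratio was 9.52 without female library c and 4.78 without d or e. Cenpf, a large kinetochore protein that accumulates late in the cell cycle, averaged 117 in males against 27.9 in females by the authors' deposited table. Its female libraries were uneven, with 6.17 and 6.34 in a and b against 49.8, 46.3 and 30.9 in c, d and e.

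All 6 spindle genes were lower in females by the authors' test. Kif11, the motor that pushes spindle poles apart, had 32.1, 72.0 and 144 as the lowest, median and highest male value and 9.69, 23.5, 0, 11.3 and 29.8 in females, without overlap. Ckap2, a microtubule-stabilizing protein, was 60.6, 78.3 and 218 in males and 12.3, 19.0, 22.0, 41.1 and 51.5 in females, again without overlap. Aspm, which organizes spindle poles, was 48.8, 69.7 and 138 in males and 22.0, 12.7, 28.7, 19.5 and 37.0 in females, without overlap. In all 3 of these genes the highest value was in male library a. Without that library the male mean was 2.53 times the female mean for Ckap2, against 3.36 with it, and 2.65 against 3.17 for Aspm. Fam83d, which takes a kinase to the spindle, had few counts, 4.88, 14.8 and 34.1 in males and 3.52, 0.905, 8.61, 2.06 and 0 in females, and female library c overlapped the males. Its male mean was 5.60 times the female mean with all libraries, 10.4 times without female library c and 4.48 times without e. The other 2 spindle genes had smaller ratios and no recovered male libraries. Tpx2, an activator of Aurka, averaged 211 in males against 111 in females by the authors' deposited table, with female libraries between 77.5 and 145. Nusap1, which bundles spindle microtubules near chromatin, averaged 99.0 in males against 51.2 in females by the authors' deposited table, with female libraries between 45.0 and 62.8.

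Of the 5 measured cytokinesis genes, 4 were lower in females by the authors' test and Kif20a was not called. Prc1, which cross-links the midzone of the spindle, averaged 151 in males against 23.8 in females by the authors' deposited table, and its female libraries held 25.5, 23.5, 1.91, 37.0 and 30.9 normalized counts. The male mean was 4.07 times the highest female library. Cep55, an abscission protein, had 12.2, 27.0 and 52.0 as the lowest, median and highest male value and 0, 1.81, 2.87, 13.4 and 0 in females, of which library d overlapped the males. Its male mean of 29.7 ± 16.1 (SD, n = 6) was 8.23 times the female mean of 3.61 ± 5.59 (SD, n = 5). Without female library d, which held most of the female counts, the female mean was 1.17 and the ratio 25.4. The ratio was 6.58 without female library a or e. Kif23, a motor of the midzone, was 41.6, 68.1 and 121 in males and 4.40, 19.0, 0.957, 32.9 and 32.9 in females, without overlap. Ect2, which switches on the contractile ring, was 19.99, 33.9 and 63.9 in males and 4.40, 15.4, 0, 26.7 and 5.15 in females. Female library d lay inside the male range. The ratio of means was 3.47, or 5.75 without that library and 2.78 without female library c. Kif20a, another midzone motor, was 30.8 to 107 in males and ranged from 6.34 to 67.9 in females, so that female libraries c and e lay among the males.

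**Figure D2:**
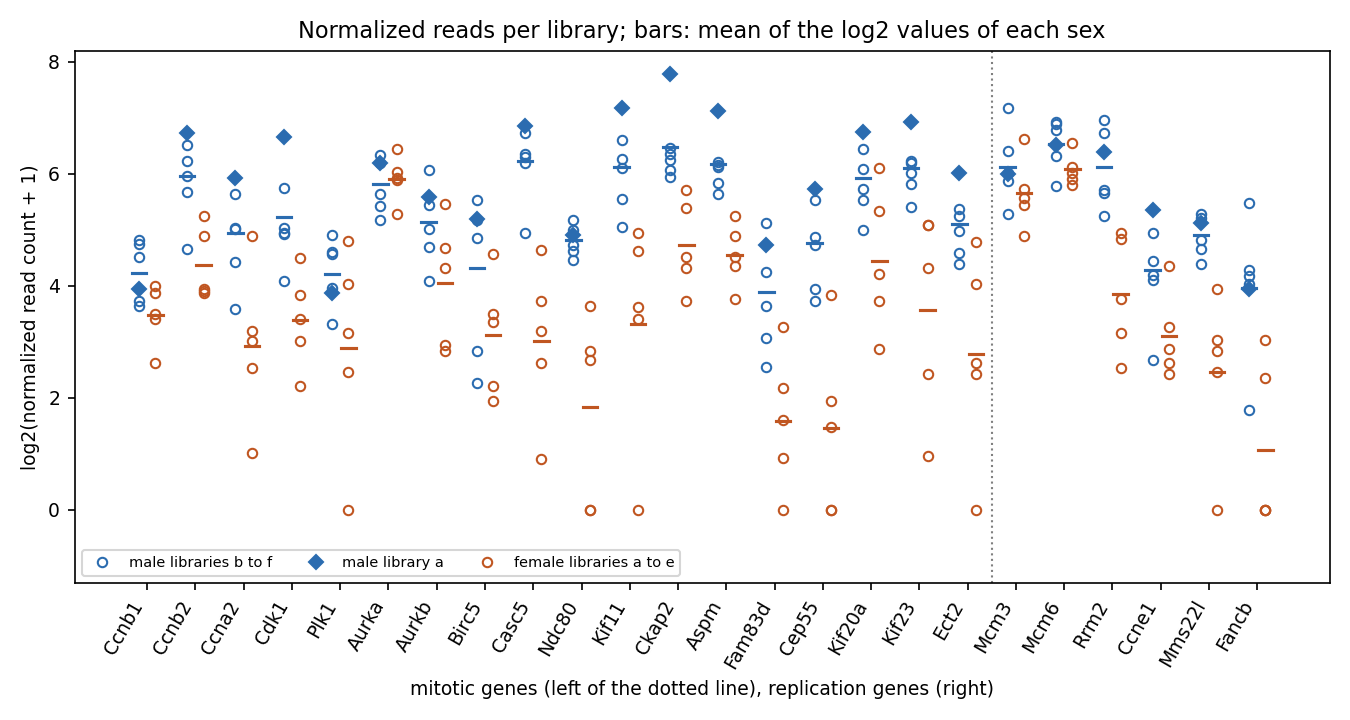
Normalized counts in each of the 6 male and 5 female libraries for genes with counts recovered in every library, on a log2(value + 1) axis, with male library a as filled diamonds and bars at the mean of the log2 values. Casc5, Ndc80, Kif11, Ckap2, Aspm, Kif23, Rrm2 and Mms22l show no overlap between the sexes, while the Aurka points of both sexes lie over the same range.

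None of the 7 helicase and clamp genes was called by the authors' test. Mcm2 and Mcm7, subunits of the replicative helicase, had higher female than male means. Mcm2 averaged 337 in males against 438 in females, and Mcm7 averaged 345 against 425, by the authors' deposited table. Mcm4, Mcm3, Mcm5 and Mcm6, further subunits of the same ring, had lower female means, with log2 fold changes from -0.50 to -0.32 in the authors' deposited table. Mcm3 had 38.1, 63.3 and 145 as the lowest, median and highest male value and 46.7, 42.5, 28.7, 52.4 and 97.8 in females. Mcm6 was 54.3, 99.5 and 121 in males and 54.6, 58.8, 64.1, 92.6 and 69.0 in females, and no female library was below the lowest male. The female libraries of Mcm5 held 82.8, 73.3, 132, 87.4 and 184, and its male mean of 158 was lower than the highest of them. Pcna, the sliding clamp, averaged 1612 in males against 1248 in females by the authors' deposited table, a log2 fold change of -0.37.

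Ribonucleotide reductase, which makes deoxynucleotides, has a pair of subunits on the list, of which the authors' test called Rrm2 and not Rrm1. Rrm1, the large subunit, averaged 2147 in males against 2130 in females by the authors' deposited table, a log2 fold change of -0.011. Rrm2, the small subunit, whose level is tied to S phase, had 37.0, 67.1 and 124 as the lowest, median and highest male value and 7.93, 12.7, 4.78, 29.8 and 27.8 in females, without overlap. Its means were 74.9 ± 34.6 in males (SD, n = 6) and 16.6 ± 11.5 in females (SD, n = 5), a ratio of 4.51. Tyms, thymidylate synthase, averaged 339 in males against 220 in females by the authors' deposited table and was not called. Tk1, thymidine kinase, had means of 110 and 129 there and was not called either.

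The remaining replication genes were at low levels. Mms22l, a repair protein of stalled forks, had 19.9, 30.6 and 38.1 as the lowest, median and highest male value and 6.17, 4.53, 14.4, 7.20 and 0 in females, without overlap. Fancb, a subunit of the Fanconi anaemia core complex, was 2.47, 16.2 and 43.8 in males and 0, 7.24, 0, 4.11 and 0 in females. Male library f lay among the female values, and the female mean of 2.27 rests on few counts. The ratio of means was 8.21, or 18.1 without female library b and 6.56 without a, c or e. Ccne1, the cyclin of S-phase entry, was 5.43, 19.0 and 40.1 in males and 4.40, 6.34, 8.61, 5.14 and 19.6 in females, with the sexes overlapping. Mms22l and Fancb were lower in females by the authors' test and Ccne1 was not called.

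Over the 24 genes with counts recovered in every library, 8 had every male library above every female library and none had the reverse. The 8 were the mitotic genes Casc5, Ndc80, Kif11, Ckap2, Aspm and Kif23 and the replication genes Rrm2 and Mms22l. Among all 2504 genes recovered in every library with a mean of at least 5, the share with every male above every female was 1.08%, and with the reverse 0.879%. All 24 genes had at least 1 count in each male library, whereas 8 of them had 0 counts in at least 1 female library. Such zeros occurred for 2 genes in female library a, 0 in b, 4 in c, 1 in d and 5 in e. No share over all genes is given for such zeros. Because the list was chosen with the contrast known, neither the zeros nor the genes without overlap are independent evidence of a direction.

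Summed over the 18 mitotic genes with counts recovered in every library, the level was 882 ± 312 normalized counts in males (SD, n = 6) and 302 ± 76.6 in females (SD, n = 5). The male libraries ran from 639 to 1462 and the female libraries from 216 to 382, so the sums did not overlap. Male library a was the highest. It held the highest value of the 11 libraries for 11 of the 18 mitotic genes but for only 1 of the 6 replication genes. The male mean was 2.92 times the female mean with male library a and 2.54 times without it. The 6 replication genes summed to 316 ± 89.4 in males (SD, n = 6) and 156 ± 44.0 in females (SD, n = 5), with a male mean 2.03 times the female mean. With each gene weighted equally in place of summing, the male mean was 3.05 times the female mean for the mitotic genes and 2.74 times for the replication genes (2.70 and 2.68 without male library a), so the contrast between the 2 groups of recovered genes was smaller on that scale. The 6 replication genes had their highest sum in male library d, not a, at 474. These 6 are the low-level replication genes, so the ratio leaves out Mcm2, Mcm4, Mcm7, Pcna, Rrm1, Tyms, Tk1 and Mcm5, whose group means differed less. The plot of summed counts shows all 11 libraries.

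**Figure D3:**
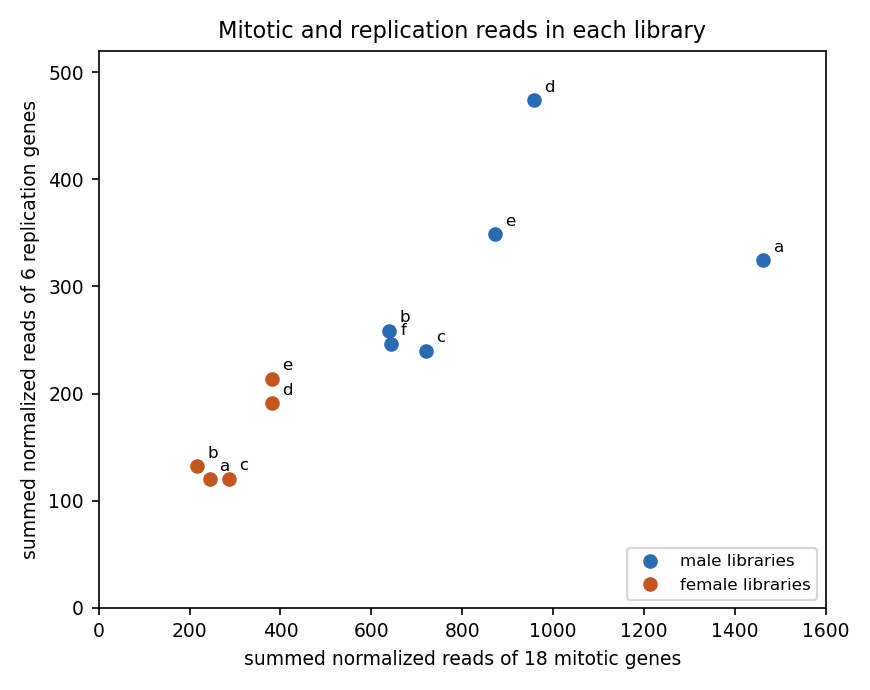
Summed normalized counts of the recovered mitotic genes (18) and replication genes (6) in each of the 11 libraries, males and females marked apart and libraries lettered by falling size factor. The 6 male libraries sit at 639 to 1462 on the mitotic axis, all above the female libraries at 216 to 382.

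The spread between male libraries was close to that of other genes of like level. The median coefficient of variation across the 6 male libraries was 43.6% for the 18 mitotic genes and 43.5% for all 1983 genes with a male mean of 10 to 100. Counting alone would give a median of 16.0% for these mitotic genes and 17.4% for all genes. For the females, 13 mitotic genes fell in that window, with a median of 76.4%, against 45.2% for 1970 genes. The female mitotic genes were at lower levels than that comparison set, with a median mean of 18.0 against 32.7. In females counting alone would give a median of 23.1% for these mitotic genes and 17.1% for all genes. The source of the larger female spread was not tested.

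A limma test on the recovered counts gave fewer calls than the authors' table. It was chosen after seeing the data. It was fitted to 1996 genes whose counts, 0 included, were recovered in every library and averaged at least 10. Of the 24 genes, limma called 2 lower in females at a Benjamini-Hochberg adjusted p under 0.05, Casc5 (log2 fold change -3.21, adjusted p = 0.0131) and Rrm2 (-2.27, adjusted p = 0.0347). Over all genes in that fit 0.2% were called lower. The authors' deposited table calls 15 of the same 24 lower and 2.91% of the same 1996 genes. At an unadjusted p under 0.05 limma had 17 of the 24 lower, against 9.47% of all genes in the fit, and 23 of the 24 had a negative fold change. Nothing is read from the members' counts against these shares, because the list was chosen with the contrast known from the same counts. Genes such as Fam83d, averaging 16.9 in males and 3.02 in females, also reached a mean of 10 only through the males. Without male library a no gene passed the adjusted threshold in limma, 16 of the 24 were lower at an unadjusted p under 0.05 (8.32% of all genes in the fit), and the adjusted p of Casc5 was 0.0695. Leaving out any other single library gave 1 to 6 of the 24 called.

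Other cell cycle genes, not on the list, were compared in the same way. They too were chosen with earlier results of these data known, so their counts are no independent evidence of a direction. Of 54 other mitotic genes measured, 10 were lower and 1 was higher in females at the authors' adjusted p under 0.05, with a median log2 fold change of -0.84. Over all genes with a mean above 0 the shares called were 7.76% lower and 6.71% higher. The 5 lowest p-values among them with a mean of at least 10 belonged to Smc2 and Smc4, the core of condensin, Arhgap11a, a regulator of the contractile ring, Sgol2, a guardian of centromeric cohesion, and Pbk, a mitotic kinase. Sgol2 averaged 41.2 in males against 3.80 in females by the authors' deposited table, a log2 fold change of -3.44. Its recovered values ran from 19.0 to 93.7 in males and from 0 to 9.26 in females, without overlap. Pbk likewise ran from 8.57 to 64.7 in males and from 0 to 8.23 in females. By the authors' deposited table Smc2 averaged 401 in males against 204 in females, Smc4 995 against 605 and Arhgap11a 115 against 45.3. The gene called higher in females was Zwint, a kinetochore protein, averaging 1285 in males against 1929 in females in the authors' deposited table; it was named after its values were seen. The 45 of these genes with counts recovered in every library summed to 1125 ± 295 in males (SD, n = 6) and 616 ± 70.6 in females (SD, n = 5), without overlap.

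Of 59 other replication genes measured, 4 were lower and 3 higher in females at the authors' adjusted p under 0.05, with a median log2 fold change of -0.33. Both counts are close to the shares over all genes, 7.76% lower and 6.71% higher, so the genes named next are a description only. Dbf4, the activator of the Cdc7 kinase, averaged 30.8 in males against 5.39 in females by the authors' deposited table, and its recovered values overlapped through male library b, which held 7.24. By the authors' deposited table Rfc1, a subunit of the clamp loader, was lower at 1821 in males against 1205 in females, and Atad2, a chromatin factor, at 168 against 79.3. Rpa1, which coats single-stranded DNA, was higher in females at 1449 in males against 2141, and Pold2, a subunit of DNA polymerase delta, at 747 against 1051, by the authors' deposited table. The third gene called higher was Pold1, the catalytic subunit, at 120 in males against 208 in females by the authors' deposited table, named after its values were seen. The 31 genes of this list with counts recovered in every library summed to 1070 ± 106 in males (SD, n = 6) and 851 ± 78.4 in females (SD, n = 5), a ratio of 1.26, and the sexes overlapped.

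Promoter elements were counted in both groups of genes. A promoter of 300 bases, from 250 before to 50 after the start, was matched for 22 of the 25 mitotic and 12 of the 14 replication genes; Ccna2, Aurkb, Tpx2, Mcm4 and Rrm2 were not matched. TTTGAA on either strand occurred in 17 of the 22 mitotic promoters (77.3%) and in 1 of the 12 replication promoters (8.33%). It occurred in 18.1% of the promoters of 27457 genes and in 11.1% of those of the 8364 matched genes with a mean of at least 5. CCAAT on either strand occurred in 17 of 22 mitotic (77.3%) and 6 of 12 replication promoters (50%), against 37.7% of all promoters and 37.4% of those with a mean of at least 5. Both motifs together were in 14 of 22 mitotic promoters (63.6%) and in none of the replication promoters, against 7.25% of all and 4.54% of those with a mean of at least 5. An E2F motif was in 0 of the 22 mitotic promoters and in 5 of the 12 replication promoters (41.7%), those of Mcm3, Mcm5, Mcm6, Mcm7 and Tyms, against 1.53% of all and 2.92% of those with a mean of at least 5. None of these 3 motifs overlaps another by its letters in the sequences shown above. A match describes letters in this window and is not a measured binding site. Only the exact letters given were searched, so a promoter without a match may still hold another form of an element.

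**Figure D4:**
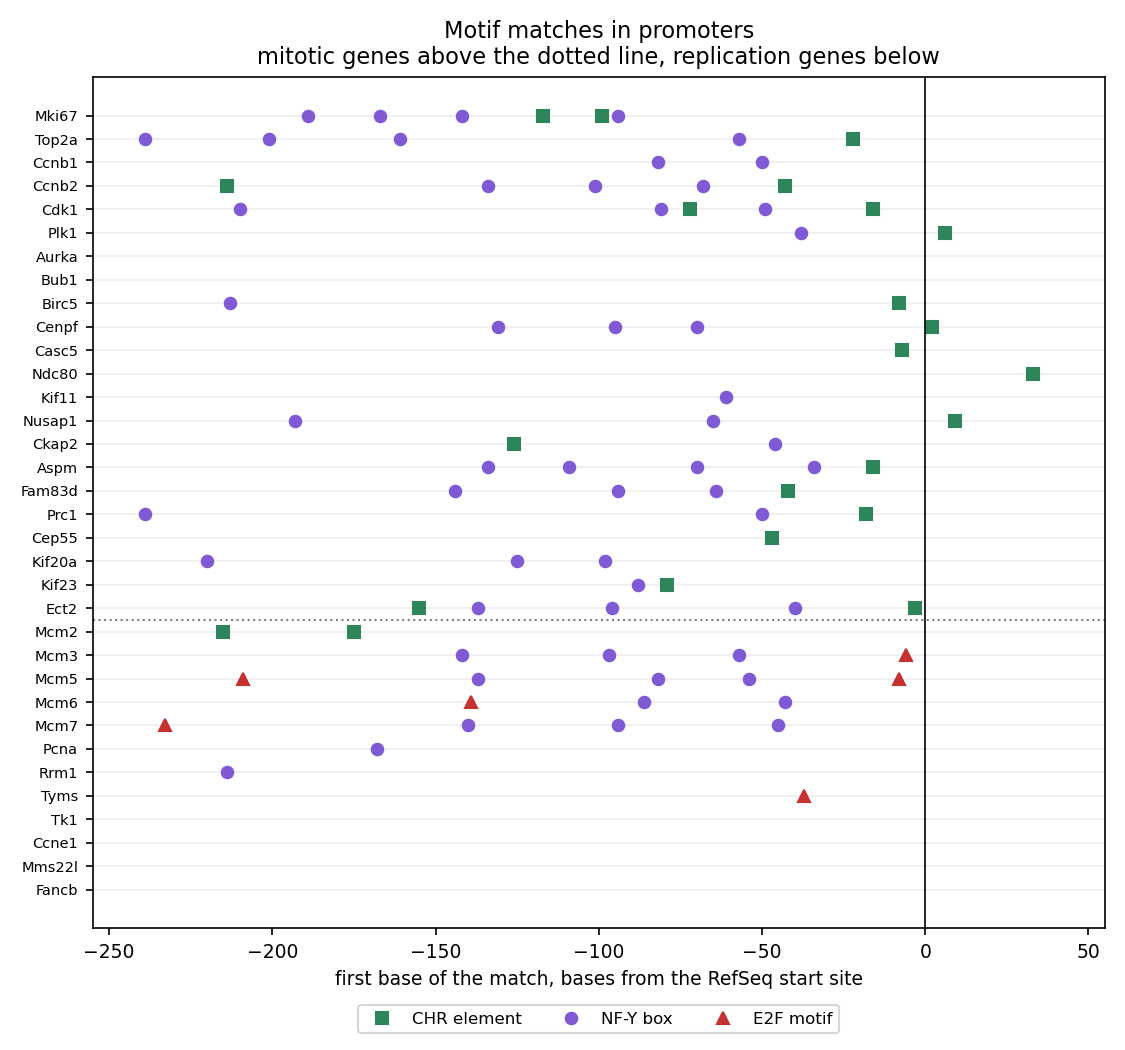
Positions of matches to the CHR element, the NF-Y box and the E2F motifs along the promoters of the 34 matched genes, in bases from the annotated start, mitotic and replication genes grouped. CHR matches appear in 17 of the 22 mitotic rows and E2F matches appear in 5 of the 12 replication rows.

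The 17 mitotic genes with a CHR match had a median log2 fold change of -1.99, and the authors' deposited table calls 15 of them lower in females. The 5 without one, Ccnb1, Aurka, Bub1, Kif11 and Kif20a, had a median of -0.98 with 2 called. The ranges overlapped, since Kif11 without a match had -2.37 in that table. Among the replication genes, the 5 with an E2F match had a median of -0.49 with none called, and the 7 without had -0.37 with 2 called. Over all genes with a mean above 0, the share called lower in females was 7.76%. These genes were chosen with the contrast known, so the counts by motif are a description only. A link between a motif and the fold change was not tested.

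Markers of other cell types were measured in the same libraries, since the preparations are of isolated myocytes. Over all genes with a mean above 0, the authors' deposited table calls 7.76% lower and 6.71% higher in females. The marker lists are short, so the counts called in each are a description only. Cardiomyocyte markers were led by Myh6 and Actc1, and 3 of 11 measured were higher in females and none lower; the female mean of Myh6 was 1.60 times the male mean of 831771 in the authors' deposited table. Fibroblast markers were present, led by Col3a1 and Dcn, with Col1a2 listed at 0, and 3 of 9 were lower in females, the authors' means summing to 18456 in males and 9469 in females. Col3a1, at 10722 against 3915, made up most of that gap; the list's median log2 fold change was -0.52, and Tcf21 (0.17) and Fbln1 (0.59), singled out after their values were seen, had positive values in the authors' deposited table. Endothelial markers, led by Pecam1 and Cdh5, had 1 of 10 lower and 2 higher, with sums of 23838 and 23056 in the authors' deposited table. Macrophage markers, led by Lyz2 and Csf1r, had 1 of 9 lower, with sums of 1307 and 988 there. The 5 macrophage genes recovered in every library summed to 193 to 340 in males and 97.8 to 290 in females. The 2 fibroblast genes so recovered, Tcf21 and Mfap5, summed to 22.8 to 174 in males and 52.0 to 106 in females. Lymphocyte markers were near 0, with Cd3d and Cd5 among those listed at 0 and sums of 13.7 and 12.5 in the authors' deposited table, and so were granulocyte markers, with Camp, Ngp and Mpo listed at 0 and sums of 7.39 and 7.11. None of the 9 mural markers (led by Abcc9 and Rgs5) and none of the 6 erythroid markers (Slc4a1 and Hbb) was called; 1 of 6 Schwann cell markers (Mbp; Cnp was the other leading gene) was lower and 2 of 4 mesothelial markers (Msln and Krt19; Wt1 and Msln lead by mean) were higher. By the authors' deposited table, Abcc9 averaged 8379 and Rgs5 2319 over all samples, against 96.9 to 1070 for the other mural genes. Slc4a1 averaged 362 and Hbb 95.6 there, while the other measured erythroid genes averaged 0.242 to 1.99. Which cells the counts of these genes came from was not tested. The part of the listed cell types in the difference of mitotic transcripts was not tested either.

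Some values carry a further uncertainty. By gene names and positions in RefSeq, 6 of the genes overlap a protein-coding neighbour (Plk1 with Ern2, Aurka with Fam210b, Kif11 with Ide, Nusap1 with Ndufaf1, Kif20a with Cdc23 and Rrm2 with Cys1), and 15 have at least 1 named pseudogene, with 3 each for Aurka, Ckap2 and Pcna. Whether the counting used strand, and how it treated reads that fit several places, is not stated in the sources at hand.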

How the data were processed

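RNA of 6 male and 5 female samples was compared. DESeq, HTSeq 0.6.1, TopHat2 2.0.12, Trimmomatic 0.32 and FastQC are named, with the rn6 build, per the submitters' processing notes; their order, settings and annotation are not given in the sources used here. The deposited table gives, per gene, the authors' mean normalized count as a signal over all samples and per sex. It also gives the authors' fold ratio and log2 fold change of those means, and the authors' p-value with its adjusted form. Group A was taken as males because the overall mean weights A by 6 and B by 5 in every one of the 13346 genes whose mean is above 0; the p-values were used as deposited. The members and gene lists were chosen with earlier results of these data known. All members are named, ordered by role; from each list of other cell cycle genes the 5 called genes with the smallest authors' p and a mean of at least 10 are named; from each marker list the 2 of highest mean and those listed at 0, except 1 marker that is not reported here.

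Each mean is a sum of whole counts divided by size factors, so size factors and counts were solved from the printed digits. They ran from 0.811 to 1.17 in males and from 0.972 to 1.14 in females. Exactly 1 solution was found for 3242 of 3242 male means up to 30, 707 of 707 up to 60 and 551 of 589 up to 100. For females it was found for 3221 of 3221, 672 of 672 and 594 of 594, and for 11 of 27 listed genes with higher means. The 4823 genes with counts recovered in all libraries total 72266 to 103370 counts per library. This is a part of each library and not its depth, which is not known here, and it limits the precision of low genes.

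limma 3.58.1 (R 4.3.3) was run on log2(normalized count + 1) of genes with a mean of at least 10, with a trend and Benjamini-Hochberg adjustment. Tested on simulated data of 1996 genes for this comparison, it recovered 35.5% of 200 genes set to differ 2-fold, with 7 false calls, and 99% at 4-fold, with 15. The simulation gave all genes the same fixed spread beyond counting, which was not fitted to these libraries. These shares are therefore not the share of such genes found in the real counts. There Cep55, with a log2 fold change of -3.30 by limma, had an adjusted p of 0.0613 and was not called. Other thresholds, filters, scalings and left-out libraries were tried. Promoters are from RefSeq (GRCr8), matched by symbol, with Casc5, an older symbol, matched to the current Knl1. Genome coordinates of rn6 were not used here, and levels per length were not computed.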

Additional observations from a re-analysis of the deposited data

Results flagged for a closer look

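Dixon's criterion was applied to 58 sets of values, each gene or sum within 1 sex. In 5 of them a single library lay far from the others of its sex, and each time it was the highest. Chance alone gives about 1 in 20 only for independent, normally distributed values. These are normalized counts, and the sets come from the same libraries, so no excess over chance is read from the 5. Ckap2 was 218 normalized counts in male library a against 60.6 to 86.7 in the other males. Aspm was 138 in male library a against 48.8 to 73.3. Ccna2 was 28.8 in female library d against 1.03 to 8.15 in the other females. Cep55 was 13.4 in female library d against 0 to 2.87. Ccne1 was 19.6 in female library e against 4.40 to 8.61.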

How the results depend on the processing

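Of 95 alternative values computed, 74 stayed within the limits set for a change, 21 moved and none reversed in direction. With the authors' adjusted p under 0.01 in place of 0.05, 13 of the listed genes were lower in females instead of 22, with 12 mitotic genes instead of 19 and 1 replication gene instead of 3. Under 0.10, 5 replication genes were lower. Among the other mitotic genes, 4 were lower and 0 higher under 0.01, instead of 10 and 1. Under 0.10, 15 of them were lower and 1 higher, a rise that was counted as within the limits. Among the other replication genes, 2 were lower and 1 higher under 0.01, instead of 4 and 3, and 9 were lower under 0.10. Leaving out each library in turn, the female sum over the male sum ran from 0.353 to 0.424 for all 24 genes (0.382 with all libraries), from 0.319 to 0.394 for the mitotic genes (0.342) and from 0.447 to 0.548 for the replication genes (0.493). With each gene weighted equally these values were 0.337, 0.328 and 0.365. For single genes, the ratio of the means moved by over 1.5 times in 10 of the 24 genes when 1 female library was left out. In each of these 10 the library left out was the highest female one, and the ratio rose. No ratio moved that far when 1 male library was left out. With a mean of at least 20 the median log2 fold change of the members was -1.08, against -1.40 with a mean of at least 5. The limma test, chosen after seeing the data, called 2 of 24 genes and 0 to 6 with 1 library left out. No cause of these shifts was tested beyond the changed threshold itself. No paired analysis was possible because the deposited file holds 1 mean per sex, and the recovered libraries carry no replicate number.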
